A study of Mus musculus with 7 samples.

Results

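Synaptotagmins are a family of membrane-trafficking proteins, most of which sit on secretory vesicles and carry a pair of C2 domains. In the calcium-binding members these domains bind phospholipid and SNARE proteins when calcium enters a nerve terminal, and so couple the calcium signal to vesicle fusion. In the forebrain the family is best known for transmitter release at glutamate and GABA synapses, and several members act instead on dense-core granules, on slow forms of release, or on membrane recycling without binding calcium at all. The 10 genes described here were Syt1, Syt2, Syt3, Syt4, Syt5, Syt7, Syt11, Syt13, Syt16 and Syt17, taken by gene symbol from a table of 21965 genes. All 10 were found, each on a single row, and all 10 passed the filter on low counts, as did 14417 genes in all.

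The table held RNA-seq counts from mouse hippocampus in 7 libraries. Noise-exposed mice had noise-induced hidden hearing loss (NIHHL) after 110 dB noise for 2 h, with tissue taken 1 month later (4 libraries), and were compared with mice labelled as blank controls (Control, 3 libraries). Hidden hearing loss is a state in which noise impairs hearing without a lasting rise in the hearing threshold. The labels give no strain, age, sex or genotype and do not tie each library to its own animal, so the p-values reflect only variation from library to library, which may be technical. The series' design asks which hippocampal genes are associated with impaired memory in this model. In whole tissue, fewer cells of a type and less RNA per cell cannot be told apart.

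Library totals ran from 14871376 to 24515146 counts, both extremes being Control libraries. The hippocampal neuron list was present in every library: its 12 genes summed to between 5861 and 6359 CPM (counts scaled to a common library size) in NIHHL and between 5349 and 6685 CPM in Control. The interneuron list summed to between 1099.8 and 1148 CPM in NIHHL and between 1083 and 1169 CPM in Control. For astrocytes the sums were 5683 to 6225 CPM in NIHHL and 5074 to 6267 CPM in Control, and for microglia 535 to 663 CPM in NIHHL and 565 to 603 CPM in Control. Oligodendrocyte genes summed to between 8040.1 and 9501 CPM in NIHHL and between 7005 and 8792 CPM in Control. The summed ependymal genes did not overlap between the groups, at 101.3 to 121 CPM in NIHHL and 66.7 to 84.7 CPM in Control. Taken singly, 5 of the 10 ependymal genes did not overlap, against 5.2% of all genes tested. Choroid plexus genes, led by Ttr, ran from 666 to 8686 CPM in NIHHL and from 202 to 7141 CPM in Control. The part of these cell types in the synaptotagmin values was not tested.

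Counted by gene, 9 of 10 oligodendrocyte, 10 of 10 astrocyte, 10 of 10 ependymal and 10 of 10 choroid plexus markers had a log2 fold change (NIHHL minus Control) above 0. None was called at an adjusted p under 0.05 by edgeR. At an unadjusted p under 0.05, 4 oligodendrocyte, 1 astrocyte, 8 ependymal and 0 choroid plexus markers were higher in NIHHL, beside 2.32% of all genes tested. All marker lists were chosen with earlier results of these data known, so neither these counts nor the sums above carry a test. For the interneuron list 8 of 10 log2 fold changes lay below 0, for the hippocampal neuron list 6 of 12, and for microglia 3 of 10, with 0 genes at an unadjusted p under 0.05 in each of these.

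Levels of different genes can be compared only per length, because a long transcript gives more fragments than a short one. They were expressed as CPM per kilobase of annotated exon (GENCODE M21, GRCm38) and averaged over all 7 libraries. Syt1 stood highest, at 169.8 CPM per kb, with a range over libraries of 155 to 187. Syt11 followed at 128 CPM per kb, from 119.6 to 134. These were the only members above 100 CPM per kb under this length.

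Syt5 and Syt13 came next, at 50.5 and 50.3 CPM per kb, and their ranges overlapped. Syt4 at 34.8 and Syt7 at 32.6 CPM per kb overlapped as well. Syt17 at 14.998 and Syt3 at 14.2 CPM per kb overlapped too. Syt16 stood at 7.63 CPM per kb, and Syt2 was lowest at 4.28, with a range of 2.97 to 6.40. Of the 9 pairs of neighbours in this order, 6 had ranges that did not overlap.

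Syt1 made up 32.9% ± 1.67 of the summed per-kb level of the 10 genes in NIHHL (n = 4) and 34.1% ± 0.688 in Control (SD, n = 3). Syt11 made up 25.8% ± 0.611 in NIHHL and 24.6% ± 0.799 in Control. Syt2 contributed 0.834% ± 0.212 in NIHHL and 0.855% ± 0.331 in Control. The order rests on the annotated exons. With the longest coding transcript as length, an alternative chosen after seeing the data, Syt1 stood at 294 and Syt17 at 26.4 CPM per kb, Syt7 moved above Syt4, and 8 neighbouring pairs did not overlap.

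**Figure D1:**
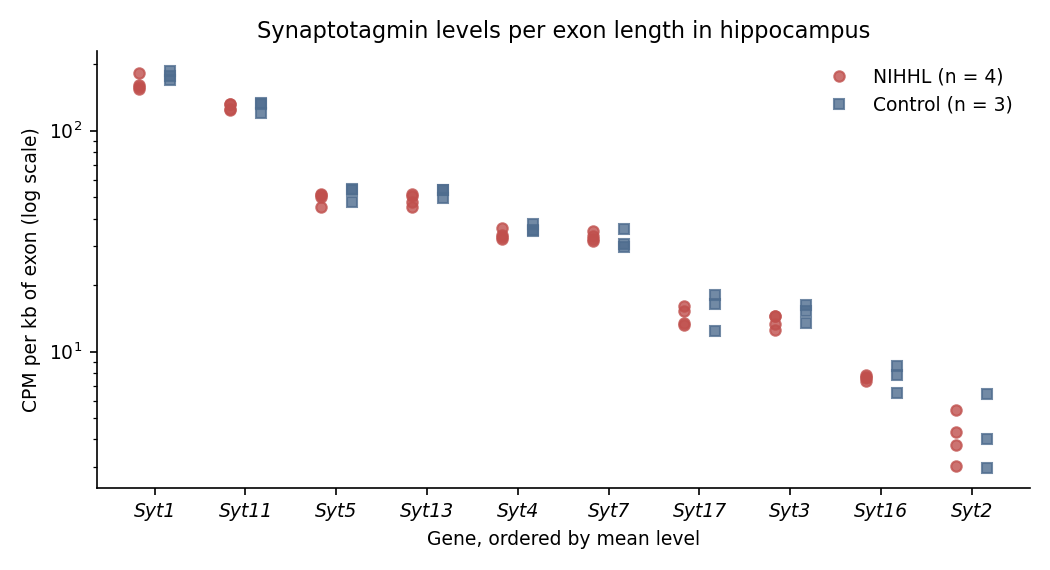
Level of each synaptotagmin gene in CPM per kb of exon (log axis), with 1 point per library: NIHHL as circles and Control as squares to their right. Syt1 and Syt11 stand above 100 CPM per kb in all 7 libraries, and Syt2 lies lowest with the widest relative spread.

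The comparison of NIHHL with Control found no synaptotagmin that changed. By edgeR's quasi-likelihood test with Benjamini-Hochberg adjustment, 0 of the 10 members were called at an adjusted p under 0.05, against 0% of all 14417 genes tested. At an unadjusted p under 0.05 there were also 0 members, beside 3.63% of all genes, and neither DESeq2 nor limma-voom called a member. No member had groups that did not overlap, which 5.2% of all genes had. Log2 fold changes (NIHHL minus Control) were below 0 for 9 members, against 50.1% of all genes. Their median was -0.098, while the median over all genes was -4.5e-04. The members share libraries and were chosen with earlier results of these data known, so the common sign carries no test. Most of the glial and ependymal markers above had the opposite sign, and 6 of 12 hippocampal neuron markers were below 0. In the related lists below, 14 of 21 fusion machinery genes and 16 of 24 vesicle and endocytic partners were below 0. So were 8 of 14 related C2 domain proteins and 2 of 6 other synaptotagmins. A majority below 0 was thus also found in the fusion, vesicle and C2 domain lists, but not among the other synaptotagmins. These lists too were chosen with earlier results of these data known, so their shares carry no test. Without Control replicate 3, 6 of the 10 members were below 0. In that omission the median of the members was -0.047.

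The intervals bound the size of these differences. For 9 of the 10 members the 95% interval of the log2 fold change lay within 0.5 of zero, beside 72.4% of all genes. Syt2 was the exception. The lowest adjusted p among the members was 0.996.

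**Figure D2:**
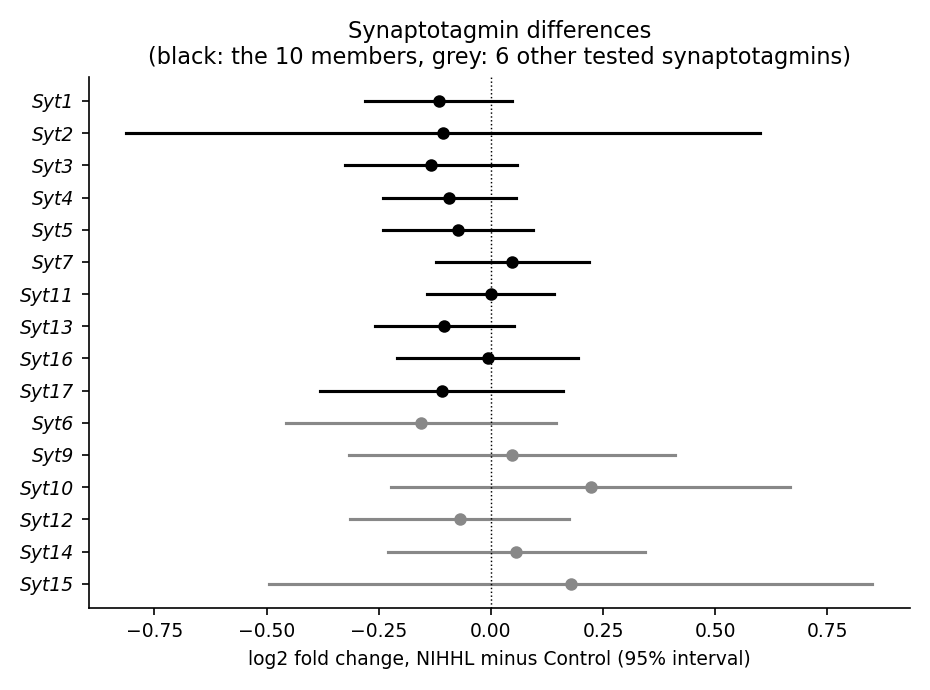
Log2 fold change, NIHHL minus Control, with its 95% interval (edgeR), for the 10 members in black and the 6 other tested synaptotagmins in grey. Every interval includes 0, and that of Syt2, from -0.81 to 0.60, is the widest among the members.

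Among the fast calcium sensors, Syt1 triggers synchronous transmitter release in most forebrain neurons. The gene lies at chr10:108497650-109010982 on the minus strand. It had 1339, 1316, 1293 and 1518 CPM in NIHHL replicates 1 to 4, against 1558, 1409 and 1476 CPM in Control replicates 1 to 3. NIHHL replicates 1 to 3 lay below every Control library, and NIHHL replicate 4 lay within the Control range. The means were 1366 ± 103 CPM in NIHHL and 1481 ± 74.8 CPM in Control (SD). Its log2 fold change was -0.12 (SE 0.07, 95% interval -0.28 to 0.05), which corresponds to a ratio between 0.824 and 1.03. Without NIHHL replicate 4 the log2 fold change was -0.17, with an unadjusted p of 0.0290 and an adjusted p of 1.00 by edgeR. With Control replicate 2 left out as well it was -0.20, with an unadjusted p of 0.0073 and an adjusted p of 0.641, and without Control replicate 1 alone it was -0.079.

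Syt2, a close relative of Syt1, serves fast release in the brainstem and spinal cord and in parvalbumin interneurons of the forebrain. It is encoded at chr1:134646677-134762593 on the plus strand. Its values were 41.7, 23.2, 32.9 and 28.7 CPM in NIHHL replicates 1 to 4, against 30.7, 22.7 and 48.9 CPM in Control replicates 1 to 3. The highest and the lowest library were both Control, and they differed 2.15-fold, the largest such ratio among the 10 genes. The mean was 31.6 ± 7.81 CPM in NIHHL, against 34.1 ± 13.4 CPM in Control (SD), with a log2 fold change of -0.11 (SE 0.30, interval -0.81 to 0.60). Without Control replicate 3 the log2 fold change was 0.25, and without Control replicate 2 it was -0.33, so single libraries set its direction. Its counts ran from 403 to 1036 per library.

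A pair of marker genes is set beside Syt2, each defining a neuron class of its own. Slc17a6, the vesicular glutamate transporter of thalamic and other subcortical neurons, had 21.3, 15.3, 15.3 and 11.5 CPM in NIHHL replicates 1 to 4 and 13.3, 13.5 and 27.6 CPM in Control replicates 1 to 3. Its highest libraries were Control replicate 3 and NIHHL replicate 1, as for Syt2, and it was the 1 gene of 7 tested on its list of which this held. On the same list Zic1 was highest in Control replicate 2, at 45.3 CPM, with 21.98 CPM in Control replicate 3, and Plekhg1 was highest in NIHHL replicate 4, at 32.1 CPM. Pvalb, the calcium buffer that defines parvalbumin interneurons, had 36.1, 27.4, 33.0 and 25.7 CPM in NIHHL and 31.6, 34.8 and 40.6 CPM in Control. It too was highest in those 2 libraries, while Control replicate 2 was next for Pvalb and last for Syt2. Pvalb was the 1 gene of 10 on the interneuron list with these 2 libraries highest. Kcnc1 and Erbb4, also expressed in parvalbumin interneurons, were highest in NIHHL replicate 4 and Control replicate 1, at 125.5 and 127.6 CPM for Kcnc1 and at 89.24 and 90.82 CPM for Erbb4.

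Of the 10 genes on the thalamus and brainstem list, 7 were tested, and they summed to between 117 and 133 CPM in NIHHL and between 106 and 138 CPM in Control. Hoxb5 had no count, and Gbx2 and Slc6a5 had between 1 and 8 counts in each library. Tcf7l2, a transcription factor of the thalamus, was at 5.43, 4.83, 5.12 and 4.48 CPM in NIHHL and 3.24, 2.69 and 4.48 CPM in Control. The part of these cells in the Syt2 values was not tested.

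Among slower sensors, Syt7 binds calcium with high affinity and serves asynchronous release and synaptic facilitation. The gene lies at chr19:10389090-10453180, on the plus strand. It stood at 238, 249, 241 and 264 CPM in NIHHL replicates 1 to 4 and at 268, 222 and 229 CPM in Control replicates 1 to 3. All NIHHL libraries lay inside the Control range. Syt7 was the 1 member with a fold change above 0, a log2 fold change of 0.05 (SE 0.08, interval -0.12 to 0.22). It was 0.018 with NIHHL replicate 4 left out, and omitting a Control library gave 0.13 (replicate 1), -8.7e-04 (replicate 2) or 0.015 (replicate 3). The means were 248 ± 11.6 CPM in NIHHL and 239.8 ± 24.8 CPM in Control.

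Syt3, another high-affinity sensor, acts in the removal of AMPA receptors from the postsynaptic membrane. Its gene is at chr7:44384102-44400187, plus strand. Its levels were 41.5, 44.9, 45.1 and 39.0 CPM in NIHHL and 47.5, 50.9 and 41.9 CPM in Control. The lowest library was NIHHL replicate 4 and the highest 2 were Control. The log2 fold change of Syt3 was the most negative of the members, at -0.13 (SE 0.09, interval -0.33 to 0.06), and its unadjusted edgeR p was 0.156. Means were 42.6 ± 2.94 CPM in NIHHL and 46.7 ± 4.55 CPM in Control. Without Control replicate 3 the log2 fold change was -0.21, with an unadjusted edgeR p of 0.0467 and an adjusted p of 0.996. Without Control replicate 2 it was -0.063.

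Syt5 is a calcium-binding member found on secretory vesicles and related in sequence to Syt1; its name and that of Syt9 have been exchanged in part of the literature. It lies at chr7:4539765-4547541 on the minus strand. In NIHHL it had 123, 122, 119 and 107 CPM and in Control 113, 128 and 129.9 CPM. NIHHL replicate 4 was lowest, and the other NIHHL libraries lay within the Control range. Means were 118 ± 7.06 CPM in NIHHL and 124 ± 9.37 CPM in Control, and the log2 fold change of Syt5 was -0.074 (SE 0.08, interval -0.24 to 0.09). It was -0.031 with NIHHL replicate 4 left out, and omitting a Control library gave -0.14 (replicate 1), -0.044 (replicate 2) or -0.038 (replicate 3).

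**Figure D3:**
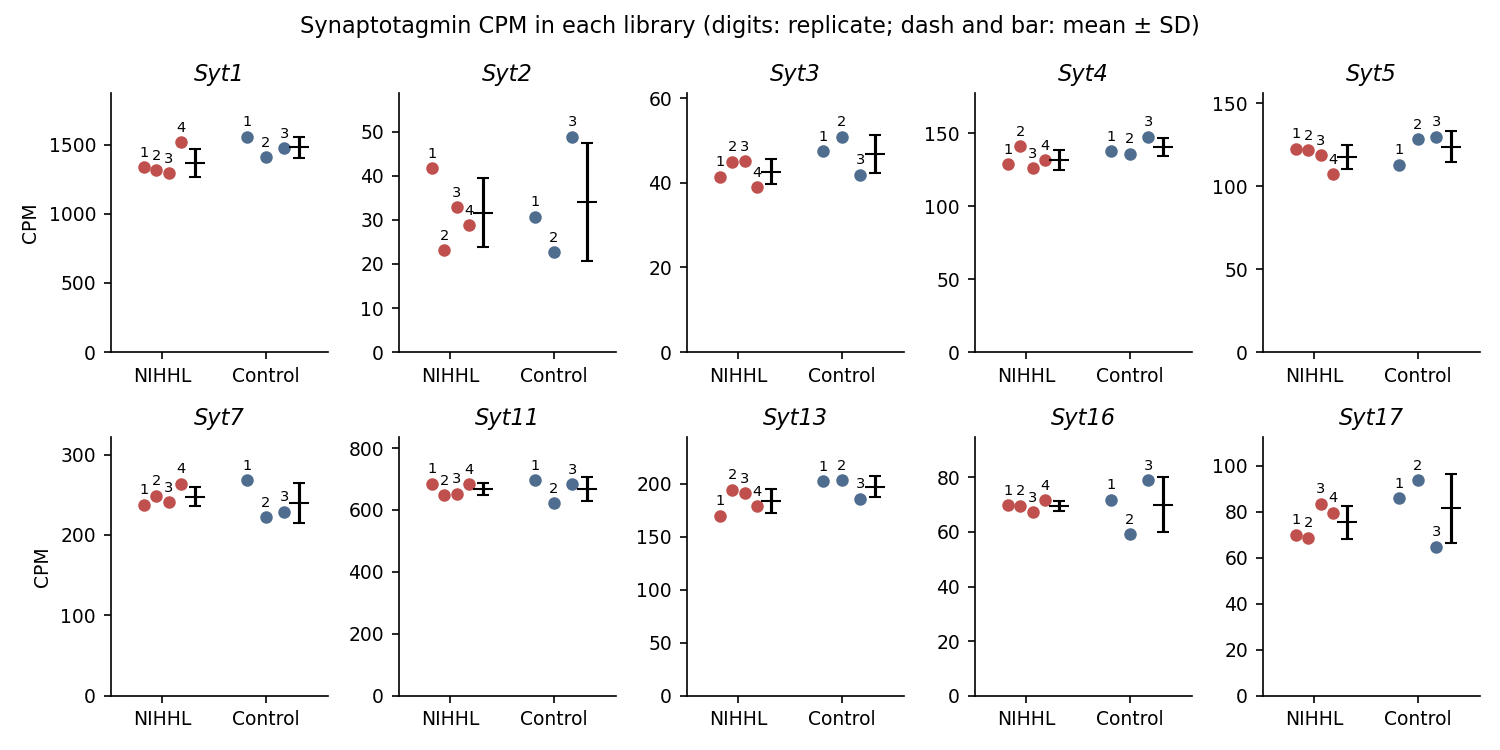
CPM of each synaptotagmin gene, 1 panel per gene with its axis starting at 0, with NIHHL left of Control, 1 point per library marked by its replicate number, and the mean ± SD beside the points. The groups overlap in all 10 panels, and in relative terms the libraries of Syt2 differ most, between 22.7 and 48.9 CPM.

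Syt4 and Syt11 carry a serine in place of a calcium-coordinating aspartate in the first C2 domain. Syt4 is found on dense-core vesicles, including those that carry BDNF in rodent hippocampal neurons, and lies on chromosome 18. It had 129, 141, 126 and 131 CPM in NIHHL replicates 1 to 4, against 138, 136 and 148 CPM in Control replicates 1 to 3. NIHHL replicates 1, 3 and 4 lay below all Control libraries, and NIHHL replicate 2 lay within the Control range. Syt4 averaged 132 ± 6.59 CPM in NIHHL; the Control mean was 140.5 ± 6.30 CPM. This is a log2 fold change of -0.093 (SE 0.07, interval -0.24 to 0.05). Without Control replicate 3 it was -0.055.

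Syt11, which restrains vesicle recycling, is encoded at chr3:88744700-88775164, minus strand. It was at 685, 648, 652 and 684 CPM in NIHHL and at 696, 623 and 684 CPM in Control. Its means were 667 ± 19.9 CPM in NIHHL and 668 ± 39.5 CPM in Control, and its log2 fold change was -9.1e-04 (SE 0.06, interval -0.14 to 0.14). This was the narrowest interval of the 10 genes, a ratio between 0.906 and 1.10. Its deposited counts carried decimals in 6 of 7 libraries, as values do when reads shared between features are divided, while those of the other 9 members were whole.

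The remaining members lack the calcium-binding residues. Syt13, at chr2:92915098-92956058 on the plus strand, had 169.8, 194, 191 and 179 CPM in NIHHL and 202, 203 and 186 CPM in Control. NIHHL replicates 1 and 4 lay below all Control libraries. The means of Syt13 were 183 ± 11.3 CPM in NIHHL and 197 ± 9.97 CPM in Control, with a log2 fold change of -0.10 (SE 0.07, interval -0.26 to 0.05). Without NIHHL replicate 1 it was -0.069.

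Syt16, a member without a membrane anchor, is at chr12:73997661-74273267 on the plus strand. NIHHL libraries held 69.9, 69.5, 67.3 and 71.7 CPM, and Control libraries 71.8, 59.2 and 79.0 CPM. The 4 NIHHL values stood close together inside a wider Control range. Syt16 averaged 69.6 ± 1.82 CPM in NIHHL and 70.0 ± 10.02 CPM in Control (SD), and the difference in spread was not tested. Its log2 fold change was -0.0073 (SE 0.09, interval -0.21 to 0.19), and it was 0.090 without Control replicate 3 and -0.11 without Control replicate 2.

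Syt17, also called B/K protein, likewise lacks a membrane-spanning segment, and lies at chr7:118380717-118448222 on the minus strand. It stood at 70.1, 68.8, 83.5 and 79.6 CPM in NIHHL replicates 1 to 4 and at 85.8, 93.8 and 64.8 CPM in Control replicates 1 to 3. The lowest and the highest values were both Control, and they differed 1.45-fold. It averaged 75.5 ± 7.20 CPM in NIHHL and 81.5 ± 14.99 CPM in Control, with a log2 fold change of -0.11 (SE 0.12, interval -0.38 to 0.16). Without Control replicate 3 it was -0.25, with an unadjusted edgeR p of 0.0295 and an adjusted p of 0.996, and without Control replicate 2 it was 0.0098. After Syt2, Syt17 had the largest spread within groups, with a pooled coefficient of variation of 14.1%, against 31.9% for Syt2 and between 4.40% and 9.30% for the other 8 genes.

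Marker genes of principal neurons also differed between these libraries. Grik4, a kainate receptor subunit of CA3 neurons, was at 34.9, 35.1, 42.6 and 46.4 CPM in NIHHL replicates 1 to 4 and at 46.6, 54.1 and 35.8 CPM in Control replicates 1 to 3. In Control it was highest in replicate 2 and lowest in replicate 3, and in NIHHL it was higher in replicates 3 and 4 than in 1 and 2, as for Syt17. On the hippocampal neuron list, 4 of 12 genes were highest in Control replicate 2, as Syt17 was. So were 2 of 10 microglia markers and 1 gene each of the interneuron, thalamus and brainstem, ependymal and astrocyte lists. No oligodendrocyte or choroid plexus marker was, and the share over all genes was not counted. Prox1, which marks dentate granule cells, was at 107, 149, 134 and 166 CPM in NIHHL and at 145, 104 and 101 CPM in Control. Wfs1, of CA1 neurons, was at 124, 118, 98.4 and 115 CPM in NIHHL and at 122, 65.7 and 131 CPM in Control. Slc17a6 and Grik4 were picked from their lists after their values were seen, and the part of region shares in the Syt17 values was not tested.

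**Figure D4:**
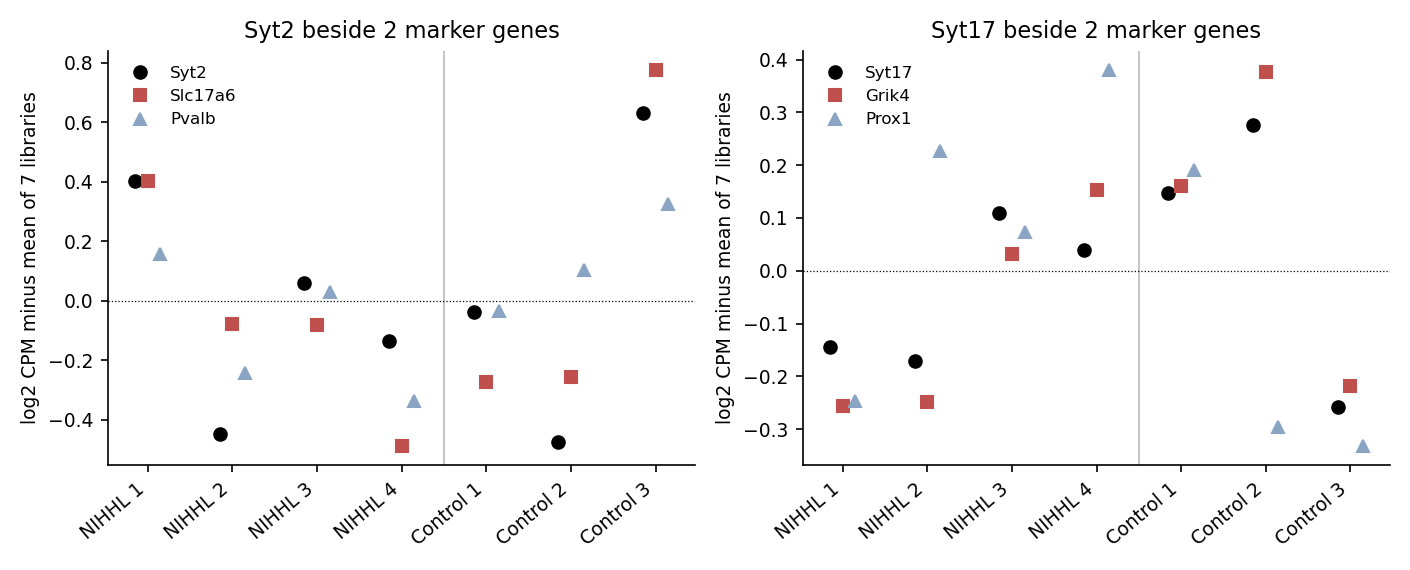
Log2 CPM of each gene minus its mean over the 7 libraries, for Syt2 with Slc17a6 and Pvalb (left) and for Syt17 with Grik4 and Prox1 (right); NIHHL libraries are left of the grey line and Control libraries right of it. Syt2 and Slc17a6 are both highest in Control replicate 3, next in NIHHL replicate 1, and Syt17 and Grik4 are both highest in Control replicate 2.

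Libraries also differed in how their values varied with transcript length. Across 8382 genes, which are not independent replicates, exon length was set against how far each gene's log2 CPM departed from its average over libraries. The Spearman correlation in NIHHL replicates 1 to 4 was -0.17, 0.10, -0.33 and 0.52. In Control it was 0.45 for replicate 1, -0.58 for replicate 2 and -0.096 for replicate 3. For the members, deviations are given from the mean of the library's own group, not from the average over all libraries used in the correlation. The 4 longest members have between 7487 and 9144 exon bases. In Control replicate 2 they all lay below the mean of the Control libraries, by log2 deviations of -0.071 for Syt1, -0.10 for Syt7, -0.23 for Syt16 and -0.51 for Syt2. Of the 4 shortest members, with 2380 to 3892 exon bases, Syt3, Syt5 and Syt13 lay above that mean in the same library, by 0.13, 0.056 and 0.046, and Syt4 below it, at -0.046. In NIHHL replicates 3 and 4 and in Control replicate 1 the 4 longest members did not all lie on the same side. In NIHHL replicate 3, Syt1, Syt7 and Syt16 lay below the NIHHL mean, at -0.077, -0.039 and -0.048, and Syt2 above it, at 0.089. Of the short members there, Syt3, Syt5 and Syt13 lay above the mean, by 0.084, 0.016 and 0.059, and Syt4 below it, at -0.065. In NIHHL replicate 4, Syt1, Syt7 and Syt16 lay above the NIHHL mean, by 0.16, 0.091 and 0.044, but Syt2 lay below it, at -0.11, and the 4 shortest members lay between -0.13 and -0.0017. In Control replicate 1 the same 3 long members lay above the Control mean, by 0.074, 0.17 and 0.047, and Syt2 below it, at -0.077. Among the short members there, Syt3 and Syt13 lay above the mean, by 0.027 and 0.040, and Syt4 and Syt5 below it, at -0.027 and -0.13. With an offset for length the log2 fold change of Syt1 was -0.15, its unadjusted edgeR p was 0.0307 and its adjusted p was 0.892. The offset also moved other genes: 779 had an unadjusted p under 0.05 (edgeR), against 523 without it. The median log2 fold change over all genes was -0.023 with the offset and -4.5e-04 without it. The part of this trend in the group differences was not tested further.

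Genes with profiles most like those of Syt1 and Syt2 were sought among 11417 genes with a mean of at least 5 CPM. Likeness was the root mean square difference of log2 CPM, centred over the 7 libraries. For Syt1, whose own profile had a root mean square of 0.098, the closest were the phosphodiesterase Pde1a (0.026), the endothelial receptor component Eng (0.032) and the muscarinic receptor Chrm2 (0.034). For Syt2, with 0.38, the closest were Deptor, an inhibitor of mTOR (0.097), the ubiquitin ligase Pdzrn3 (0.13) and the retinol carrier Rbp4 (0.13). Deptor had 20.1, 11.8, 16.0 and 13.3 CPM in NIHHL and 14.8, 12.04 and 20.7 CPM in Control, and so was highest in the same 2 libraries as Syt2.

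None of the other synaptotagmins was called. Of 7, 6 were tested, 4 with a positive and 2 with a negative log2 fold change (median 0.052). Syt6 averaged 6.36 ± 0.488 CPM in NIHHL and 7.07 ± 0.875 CPM in Control (log2 fold change -0.15, SE 0.14). Syt10, a sensor for IGF-1 secretion in olfactory bulb neurons, averaged 4.37 ± 0.959 CPM in NIHHL and 3.76 ± 0.513 CPM in Control (log2 fold change 0.22, SE 0.20). Syt8 had 1 count, in NIHHL replicate 4, and 0 counts in the other 6 libraries.

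Among 17 related proteins with C2 domains, 14 were tested and 0 were called (median log2 fold change -0.065, 6 above and 8 below 0). Doc2b, a high-affinity calcium sensor for spontaneous release, had 111, 107, 111 and 122 CPM in NIHHL, against 116, 86.8 and 87.5 CPM in Control. Control replicate 1 lay within the NIHHL range and the other Control libraries below it. The log2 fold change of Doc2b was 0.22 (SE 0.10, interval -0.0045 to 0.45), with an unadjusted edgeR p of 0.0540. Doc2g, a homologue of low abundance, averaged 1.18 ± 0.478 CPM in NIHHL and 1.67 ± 0.849 CPM in Control.

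The fusion machinery that synaptotagmins act on comprised 21 genes, all tested, and 0 were called. At an unadjusted p under 0.05 (edgeR), 6 were lower and 1 was higher in NIHHL. Of all genes, 1.31% were lower and 2.32% higher at that level. The higher one was Snap23, a SNARE of non-neuronal secretion, named after its value was seen (log2 fold change 0.32, SE 0.14). The median log2 fold change of this list was -0.082. Stx1a, the plasma membrane SNARE, had 64.0, 63.8, 63.6 and 53.0 CPM in NIHHL, against 69.6, 72.9 and 76.4 CPM in Control, so that the groups did not overlap. Cplx1, the complexin that clamps the SNARE complex beside Syt1, had 467, 432, 470.0 and 433 CPM in NIHHL and 502, 522 and 497 CPM in Control. Their log2 fold changes were -0.26 (SE 0.08) and -0.17 (SE 0.06), each with an adjusted p of 0.996 (edgeR). The groups did not overlap for 7 of the 21 genes, Stx1a and Cplx1 among them, against 5.2% of all genes. Stx1a and Cplx1 had the smallest p of their list, so their choice itself favours such a separation. Whether the synaptotagmins differ from these genes in their response was not tested.

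Of 24 vesicle and endocytic partners, all tested, 0 were called, with a median log2 fold change of -0.098. At an unadjusted p under 0.05 (edgeR), 3 were lower and 0 higher, beside 1.31% and 2.32% of all genes. This list and the fusion machinery were chosen with earlier results of these data known, so the counts carry no test. Synaptophysin, Syp, had 985, 955, 992 and 1013 CPM in NIHHL and 1125, 1148 and 1052 CPM in Control. Its log2 fold change was -0.17 (SE 0.06, adjusted p = 0.996 by edgeR). The other low gene besides Syp and Syngr1 was Rab3a, a vesicle GTPase (-0.19, SE 0.08), also named after its value was seen. Syngr1, a related vesicle membrane protein, had 359, 334, 353 and 345 CPM in NIHHL and 383, 384 and 399 CPM in Control (log2 fold change -0.16, SE 0.06). For both genes every NIHHL library lay below every Control library; they had the smallest p of their list, so their choice itself favours such a separation.

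**Figure D5:**
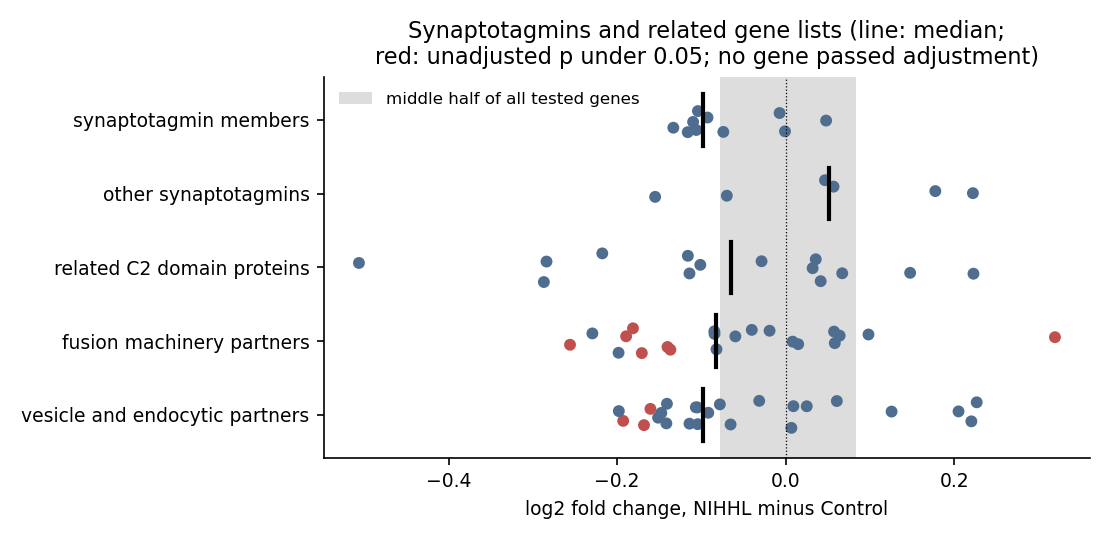
Log2 fold change, NIHHL minus Control, of each tested gene in 5 lists (points, spread vertically to separate them), with the list median as a black line and the middle 50% of all tested genes shaded. Genes at an unadjusted p under 0.05 are red; they lie in the fusion machinery and vesicle lists and none is a synaptotagmin.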

How the data were processed

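As deposited by the authors, the values are estimated counts per gene (expected counts) for 7 hippocampal poly(A) RNA libraries, in 1 table with Ensembl identifiers and symbols and no scaling to library size; 90.7% of the values were whole numbers. Tools listed in the submitters' processing notes, with no role stated, are HISAT2, Bowtie2 2.2.8, DESeq2 and StringTie 1.3.1. Build, annotation, counting step and strandedness: not given in the sources used here. Without strand, reads of a gene and its antisense partner cannot be told apart: in GENCODE M21 the exons of Syt4, Syt7 and Syt16 share 566, 384 and 183 bases with an antisense gene.

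Counts were rounded, filtered with edgeR's filterByExpr (minimum count 10) and scaled by TMM. CPM use the TMM factors, and log2 CPM a prior count of 2. The groups were compared by edgeR's quasi-likelihood test (robust), with group alone in the model and Benjamini-Hochberg adjustment over all tested genes at 0.05. Each SE is |log2 fold change| over the root of F. Exon lengths are the union of all GENCODE M21 exons. Software was R 4.3.3, edgeR 4.0.16, limma 3.58.1 and DESeq2 1.42.0. The members and the 12 other lists (4 of related genes, 8 of markers) were chosen with earlier results of these data known. Named genes were all members, per related list the 2 with the smallest p, the 3 most like Syt1 and Syt2, and Prox1, Wfs1, Pvalb, Tcf7l2 and Ttr; further genes (Slc17a6, Grik4, Snap23, Rab3a, Zic1, Plekhg1, Kcnc1, Erbb4 and Sytl3) were named after their values were seen. Alternatives were other size factors, no filter, DESeq2, limma-voom, omitted libraries, a replicate block and a length offset.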

Additional observations from a re-analysis of the deposited data

Results flagged for a closer look

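In 3 of the 37 named genes that were tested, 1 NIHHL library stood apart from the other 3 by a gap that, as a part of the group's range, passed Dixon's 95% critical value for 4 samples; chance gives this in about 1 of 20 groups. For Stx1a the gap took 0.961 of the range, with NIHHL replicate 4 lowest at 53.0 CPM. For Eng it took 0.844, with NIHHL replicate 4 highest at 16.3 CPM, and for Chrm2 0.859, with the same library highest at 9.44 CPM. Eng and Chrm2 were named for their likeness to Syt1, whose own gap was 0.795 with the same library highest, so their values are not independent of it. No synaptotagmin passed that limit.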

How the results depend on the processing

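No synaptotagmin was called under any of the 14 alternatives, and neither was any gene of the 4 related lists. Over all genes DESeq2 called 4 and the fit without Control replicate 2 and NIHHL replicate 4 called 1. The median of the members was -0.062 in that fit, -0.063 with a replicate block, and between -0.085 and -0.047 when 1 library was left out. Signs turned by limma-voom for Syt11 (0.0012) and Syt16 (0.0046), and for Syt7 (-0.032) without Control replicate 2 and NIHHL replicate 4. Leaving out 1 library gave log2 fold changes from -0.046 to 0.030 for Syt11, -0.11 to 0.090 for Syt16, -0.25 to 0.0098 for Syt17, -0.33 to 0.25 for Syt2 and -8.7e-04 to 0.13 for Syt7; the cause was not tested. Syt1 (-0.17 to -0.079), Syt3 (-0.21 to -0.063), Syt4 (-0.13 to -0.055), Syt5 (-0.14 to -0.031) and Syt13 (-0.15 to -0.069) kept the sign below 0 under all 14, though with 2 libraries out Syt5 was at -0.0034 and Syt3 at -0.022. Deviations of same-numbered libraries from their group means had correlations of -0.52, -0.33 and -0.037 over genes. For differently numbered pairs across the groups the correlations ran from -0.39 to 0.47. Deviations were centred within each group, so these values cannot show whether the numbers mark a pairing. No Control library is numbered 4, so with the block NIHHL replicate 4 did not inform the group difference, and less was left to estimate the spread. With the block 339 genes had an unadjusted p under 0.05 (edgeR), against 523 without it, and 0 members did. That number was 808 without Control replicate 1 and 1041 without Control replicate 2 and NIHHL replicate 4. Counts of the members ran from 403 to 33580 per library. How far depth, the spread between libraries and the number of libraries each limit these comparisons was not tested.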

Other observations

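The synaptotagmin-like gene Sytl3, whose product binds Rab27 on secretory granules, fell below the filter on low counts and entered no test. Its counts were 15, 6, 3 and 6 in the NIHHL libraries and 1, 18 and 1 in the Control libraries, in replicate order. Ttr, an abundant transcript of the choroid plexus, took a share of 0.788%, 0.0490%, 0.439% and 0.386% of counts in NIHHL and 0.00561%, 0.638% and 0.129% in Control. Both were highest in NIHHL replicate 1 and Control replicate 2. The gene was chosen after its values were seen, and the relation was not tested.

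Per kb of exon, Syt2 stood at 3.40%, 1.92%, 2.78% and 2.07% of the level of Syt1 in NIHHL replicates 1 to 4, against 2.15%, 1.76% and 3.61% in Control replicates 1 to 3. The groups overlapped, and the order of the libraries was set by Syt2, since Syt1 differed by 1.21-fold over the 7 libraries.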
